A study of Mus musculus with 18 samples.

Results

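The 77 genes described here encode the proteins of the cytosolic ribosome in the mouse. They were chosen by name from the 55487 genes of the count table: every protein-coding gene named Rpl or Rps followed by a number and an optional a or x, together with Rplp0, Rplp1, Rplp2, Rpsa and Rps3a1. No expression value entered this choice. The large subunit accounts for 46 of them and the small subunit for 31. Genes of the mitochondrial ribosome, paralogs ending in l and the fusion gene Fau, whose name has another form, are not among the 77 and are described separately. Rps27a, which is made as a fusion with ubiquitin, is among the 77 by its name.

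The cytosolic ribosome translates messenger RNA into protein. Its small subunit decodes the message, its large subunit joins the amino acids, and the ribosomal proteins fold and stabilise the ribosomal RNA of each. These genes are transcribed in every nucleated cell, and most of their messages begin with a C followed by a run of pyrimidines, the terminal oligopyrimidine (TOP) motif, through which the kinase mTOR and the RNA-binding protein LARP1 set their translation together. BMAL1, the clock factor removed here, binds the E-box CACGTG with CLOCK, and in mouse liver the clock has been tied to the transcription and translation of ribosomal protein messages.

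Retinas were dissociated and living cells, which exclude the dye DAPI, were sorted by the myeloid surface protein CD11b. The 4 groups were CD11b-positive cells of Bmal1-mg/-mg mice (knockout microglia, 5 libraries), CD11b-positive cells of Bmal1f/f mice (control microglia, 4 libraries), CD11b-negative cells of Bmal1-mg/-mg mice (knockout retina, 5 libraries) and CD11b-negative cells of Bmal1f/f mice (control retina, 4 libraries). Bmal1f/f mice carry floxed Bmal1, and Bmal1-mg/-mg is the label for its removal from microglia, so cells of the CD11b-negative fraction are not the ones named as targeted. The labels used here give no Cre driver, age, sex or time of day. Whether each library is a mouse of its own is not stated either, so the p-values cover the spread among the libraries, which may be technical.

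Total counts ran from 32277156 to 47563119 per library. The targeted gene, listed as Arntl, had 8.52, 2.10, 19.8, 24.1 and 13.6 CPM (counts scaled to library size) in knockout microglia and 21.8, 15.5, 9.90 and 27.0 CPM in control microglia. In retina Arntl had 94.7, 80.02, 80.6, 85.4 and 124 CPM in knockouts and 112, 137, 120.0 and 94.6 CPM in controls. Neither difference passed the test (edgeR quasi-likelihood test with Benjamini-Hochberg adjustment, adjusted p = 0.999 and 0.392), the count covers the whole gene, and genotypes were taken as labelled. The 14 microglia markers summed to between 77899 and 85825 CPM in the microglia libraries and to between 8.16 and 27.3 CPM in the retina libraries. The 15 rod markers summed to between 6687 and 15124 CPM in the microglia libraries and to between 140861 and 260395 CPM in the retina libraries, so the microglia fraction held rod transcripts.

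Ribosomal protein genes took a larger share of the counts in microglia than in retina. The share was 0.824%, 0.769%, 0.711%, 0.825% and 1.10% in knockout microglia, 0.934%, 0.758%, 0.748% and 0.836% in control microglia, 0.384%, 0.408%, 0.398%, 0.423% and 0.417% in knockout retina, and 0.424%, 0.466%, 0.437% and 0.579% in control retina. The fractions did not overlap, whereas the genotypes overlapped within microglia, and in retina the highest knockout library and the lowest control library lay at 0.423% and 0.424%. The means were 0.845% ± 0.148 (SD, n = 5) and 0.819% ± 0.0861 (SD, n = 4) in knockout and control microglia, and 0.406% ± 0.0157 and 0.477% ± 0.0705 in knockout and control retina. The 78 mitochondrial ribosomal protein genes had the opposite order of fractions, with 0.168% ± 0.0129 and 0.150% ± 0.00779 in knockout and control microglia and 0.208% ± 0.0122 and 0.231% ± 0.0209 in knockout and control retina. Leaving mitochondrial and rod genes out of the total gave ribosomal protein shares of 0.857% and 0.830% in knockout and control microglia and of 0.494% and 0.615% in knockout and control retina.

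**Figure D1:**
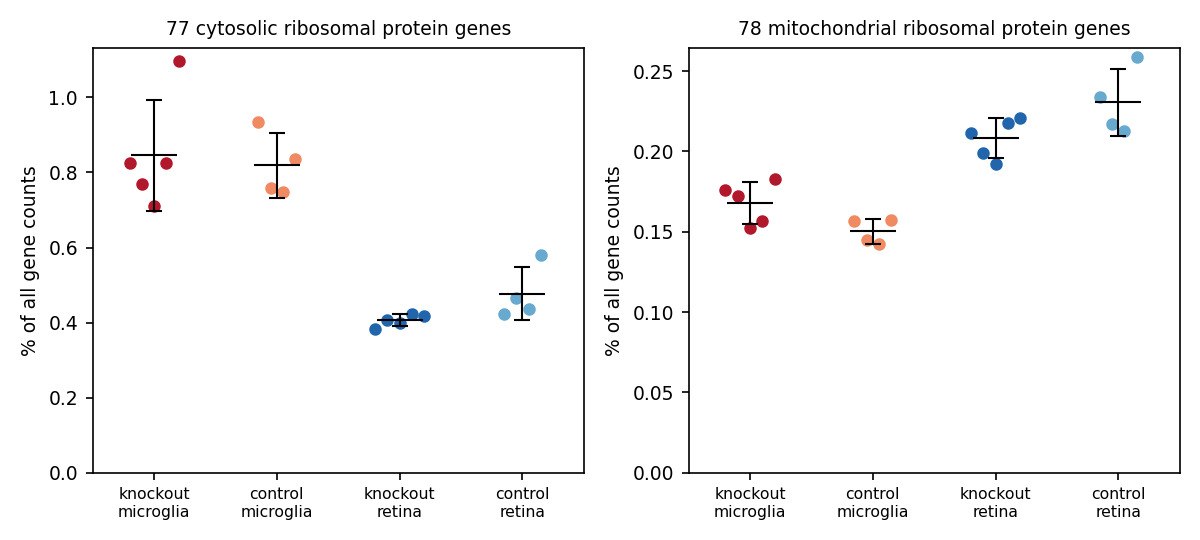
Share of all gene counts (%) taken by the 77 cytosolic ribosomal protein genes (left) and by 78 mitochondrial ribosomal protein genes (right), with 1 point per library, the group mean as a bar and the SD as whiskers. The cytosolic genes lie between 0.711% and 1.10% in microglia and between 0.384% and 0.579% in retina, and the mitochondrial genes are higher in retina.

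Some libraries were high or low across nearly the whole set. Each gene's log2 level in a library was set against its mean over the libraries of that fraction, for the 75 genes with a mean of at least 1 CPM, and the median over genes was taken. In knockout microglia the medians of replicates 1 to 5 were -0.08, -0.16, -0.19, -0.04 and 0.46, and in replicate 5 all 75 genes lay above their mean. In control microglia they were 0.15, -0.05, -0.14 and -0.01. In knockout retina all 5 medians were negative, at -0.19, -0.09, -0.14, -0.10 and -0.14, against 0.00, 0.27, 0.10 and 0.38 in control retina, where 72 of 75 genes lay above their mean in replicate 4. Knockout microglia replicate 5 and control retina replicate 4 therefore stood apart, and results that rest on them are given without them too. Over 424 other short genes, with transcripts of 526 to 975 nucleotides like those of the middle of this set, the same medians were 0.23 in knockout microglia replicate 5 and 0.15 in control retina replicate 4.

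Levels per transcript length (RPKM, the CPM divided by the length of the principal transcript in kilobases) were high but unequal among these genes. The median of the 75 genes that could be ranked lay at the 94.9 and 94.6 percentile of 12666 protein-coding genes in knockout and control microglia, and at the 89.5 and 92.2 percentile in knockout and control retina. The gene at the 90th percentile of the set was 8.18 and 8.53 times that at the 10th in knockout and control microglia, and 9.42 and 8.69 times in knockout and control retina. The order of genes was shared: Spearman's rho over the 77 genes was 0.981 between knockout and control microglia, 0.982 between knockout and control retina and 0.834 between control microglia and control retina, as descriptions across genes measured in libraries made the same way.

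Rpl13, a large-subunit protein gene (ENSMUSG00000000740, chromosome 8, 123102350 to 123105244, plus strand, GRCm38), was the highest in microglia, with 725 ± 59.8 RPKM in knockouts and 627 ± 35.4 RPKM in controls (SD, n = 5 and 4). In retina it had 200.4 ± 12.4 RPKM in knockouts and 236 ± 39.4 RPKM in controls. The highest gene in retina was Rplp0 (ENSMUSG00000067274, chromosome 5, 115559467 to 115563727, plus strand), which encodes the base of the acidic stalk that recruits translation factors. Rplp0 had 261 ± 25.2 and 302 ± 64.6 RPKM in knockout and control retina, against 381 ± 43.4 and 309 ± 37.5 RPKM in knockout and control microglia. The other stalk genes were lower than Rplp0 in retina: Rplp1 had 104 ± 12.2 and 123 ± 25.7 RPKM in knockout and control retina, and Rplp2 had 118 ± 16.0 and 139 ± 15.7 RPKM. In control microglia Rplp1 and Rplp2 stood at 318 ± 68.0 and 253 ± 30.8 RPKM, beside Rplp0 at 309 RPKM. Rps9, Rps14 and Rpl32 were also high in control microglia, with 446, 379.7 and 333 RPKM.

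At the low end, Rpl24 and Rps10 had almost no counts although both encode proteins of every ribosome. Rpl24 (ENSMUSG00000098274, chromosome 16, 55966275 to 55971435, plus strand) had 49 and 47 reads in all of knockout and control microglia and 12 and 16 reads in all of knockout and control retina. Rps10 (ENSMUSG00000052146, chromosome 17, 27630418 to 27636669, minus strand) had 61 and 44 reads in knockout and control microglia and 33 and 23 reads in knockout and control retina. Rpl23a and Rpl13a were also low, with 5.202 ± 0.835 and 2.78 ± 1.37 RPKM in control microglia and 3.18 ± 0.484 and 3.97 ± 1.18 RPKM in control retina. Rps20 stood at 14.5 RPKM in control microglia, with a principal transcript of 3706 nucleotides, the longest of the set, where the median length was 729. Before division by length it had 58.8, 52.9, 45.9 and 57.7 CPM there, beside a median of 77.1 CPM over the set. How reads were divided between near-identical copies is not given in the sources used here. The count table names 309 ribosomal protein pseudogenes, 61 of the 77 genes have at least 1 of them and Rpl31 and Rps12 have 24 each, so the level of every such gene is uncertain. The pseudogenes held between 0.00933% and 0.0291% of the counts in any library. The 16 genes with none had a median of 164 RPKM in control microglia, the 42 with 1 to 5 had 107 RPKM and the 19 with 6 or more had 95.7 RPKM.

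**Figure D2:**
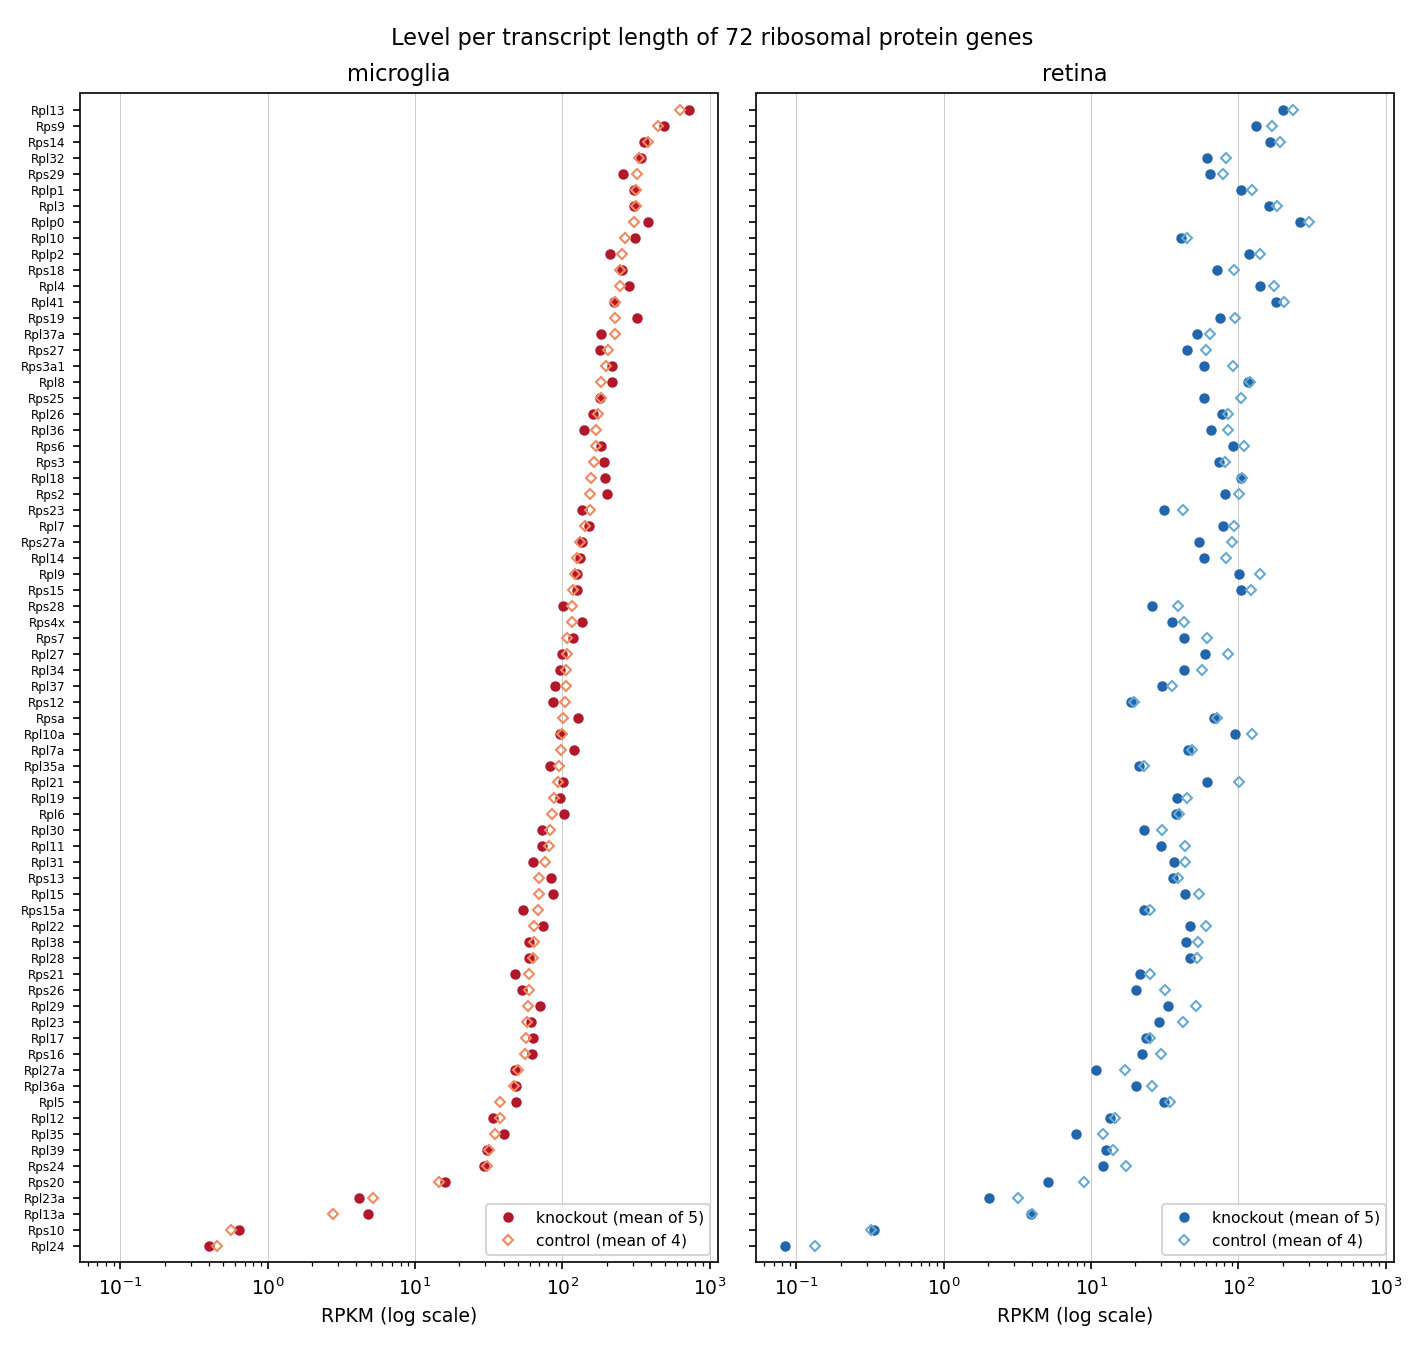
Level per transcript length (RPKM, log scale) of each of 72 of the 77 genes in microglia (left) and retina (right), as the mean of 5 knockout libraries (filled circles) and of 4 control libraries (open diamonds), ordered by control microglia. Rpl13 leads in microglia at 627 RPKM in controls, Rplp0 leads in retina at 302 RPKM in controls, and Rpl24 and Rps10 lie under 1 RPKM in all 4 groups.

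Because the set moved together between libraries, the sequence at the starts of these genes is shown. Promoter windows of 250 bases before to 50 bases after the start were taken from RefSeq (GRCm38.p6) for 57 of the 77 genes, which have 67 annotated starts. Those without an entry include Rpl3, Rpl7, Rpl8, Rpl17, Rpl21, Rpl23a, Rpl29, Rpl30, Rpl32, Rpl36, Rplp1, Rps14, Rps20, Rps27a and Rps29. A C at the annotated start followed by at least 4 more C or T, read on the gene's strand, was present in 13 of 67 windows (19.4%), against 2.51% of 32851 windows of all genes. A run of at least 8 C or T within 15 bases of the start was present in 26 of 67 windows (38.8%), against 3943 of the 32851 windows of all genes. Starts of this kind follow for genes whose values are given later, with the run that begins at the start in capitals.
Rps27, chr3:90213634-90213658, minus strand: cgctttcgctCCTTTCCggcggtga
Rpl14, chr9:120571507-120571531, plus strand: ggccctctctCTTCTCgctgagcgc
Rpl35a, chr16:33056472-33056496, plus strand: gcttgccttcCTCTTTCCgccatct
Rps15a, chr7:118116133-118116157, minus strand: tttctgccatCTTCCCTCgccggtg
Rplp2, chr7:141447641-141447665, plus strand: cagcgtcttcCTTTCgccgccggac

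The E-box CACGTG, which reads the same on both strands, was present in 8 of 67 windows (11.9%) of 6 genes, Rpl13a, Rpl14, Rpl19, Rpl23, Rpl34 and Rps19, against 7.15% of all windows. For Rpl19 and Rpl34 the same site lay in overlapping windows of different starts and was counted in each. By gene, 6 of 57 had a match. The matches of Rps19 and Rpl14 are shown because these genes had some of the smallest p-values in microglia and in retina, with the motif in capitals. They lie 120 and 168 bases before the annotated start. A match describes the letters and not binding, which was not measured here.
Rps19, chr7:24884784-24884807, plus strand: agccgcggcCACGTGcgagcggca
Rpl14, chr9:120571340-120571363, plus strand: agctcactgCACGTGtctgaggag

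Microglia had higher ribosomal protein transcript levels than the other retinal cells, in knockouts and in controls. Of 75 genes tested, 66 were higher and 0 lower in knockout microglia than in knockout retina (edgeR quasi-likelihood test, Benjamini-Hochberg adjusted p under 0.05), against 23.7% of all 15211 genes higher and 21.2% lower (44.9% in all). In controls 55 of 75 were higher and 0 lower, against 22.8% of all 15188 genes higher and 17.4% lower (40.2% in all). The median log2 difference was 1.21 in knockouts (2.32-fold) and 0.86 in controls (1.82-fold), beside -0.10 and 0.02 over all genes. The knockout and control comparisons share no library, and 55 genes were higher in both; across the 75 genes Pearson's r between the differences was 0.901 and Spearman's rho 0.888, as a description over genes that share libraries. An unadjusted p under 0.05 for a lower level was reached by 0 of 75 genes in either comparison, against 25.7% of all genes in knockouts and 21.7% in controls. The libraries of the fractions did not overlap for 62 higher genes in knockouts (22.9% of all genes) and 60 in controls (28.8% of all genes), where Rpl9 was lower without overlap (20.7% of all genes). DESeq2 called 67 higher in knockouts (25.9% of all genes) and 60 in controls (26.0% of all genes), with 0 lower in each (26.3% and 21.1% of all genes).

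Rpl10 (ENSMUSG00000008682, chromosome X, 74270812 to 74273135, plus strand), which encodes a large-subunit protein near the catalytic centre that joins late in assembly, had the largest difference. Rpl10 had 261, 219.9, 234.7, 237 and 297 CPM in knockout microglia, against 30.8, 22.7, 39.0, 35.5 and 33.8 CPM in knockout retina. It had 237, 192, 197 and 218 CPM in control microglia, against 33.3, 34.7, 40.7 and 34.8 CPM in control retina. All 9 microglia libraries were above all 9 retina libraries, and the log2 differences were 2.87 (SE 0.17, edgeR adjusted p = 4.51e-07) in knockouts and 2.51 (SE 0.14, adjusted p = 6.8e-06) in controls. The next largest differences in controls were those of Rps12 (2.36), Rpl35a (2.02), Rps29 (1.98), Rpl32 (1.97), Rps23 (1.83), Rpl37a (1.77) and Rps27 (1.71), which in knockouts were 2.13, 1.88, 1.93, 2.42, 2.05, 1.71 and 1.93, and all 7 passed in both comparisons. In knockouts Rpl35 (2.28), Rpl27a (2.05) and Rps19 (2.01) also exceeded 2. Rps12, a small-subunit gene, had 41.4, 27.9, 23.7, 51.1 and 69.2 CPM in knockout microglia and 5.38, 9.86, 9.43, 10.7 and 10.8 CPM in knockout retina. It is also a gene with 24 named pseudogenes.

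By subunit, 29 of 30 tested small-subunit genes were higher in knockout microglia than in knockout retina and 27 of 30 in the control comparison, with medians of 1.41 and 0.96. For the large subunit the counts were 37 of 45 in knockouts and 28 of 45 in controls, with medians of 1.01 and 0.82; the difference between subunits was not tested. The genes that passed in neither comparison were Rpl9, Rpl10a, Rpl13a, Rpl22, Rpl23a, Rpl28, Rpl38, Rpl41 and Rps15. Rpl10a had 50.9, 63.1, 62.4, 76.4 and 101 CPM in knockout microglia, against 71.5, 52.7, 73.7, 76.9 and 69.9 CPM in knockout retina. It had 89.7, 69.3, 67.4 and 65.1 CPM in control microglia, against 73.3, 89.1, 113 and 86.1 CPM in control retina, with log2 differences of -0.04 and -0.35. The groups of Rpl10a overlapped in both genotypes. Rpl41, the gene of a very short large-subunit peptide, had log2 differences of 0.24 in knockouts and 0.11 in controls. Rplp0, the highest gene in retina, passed in knockouts (0.47, SE 0.12, adjusted p = 0.00728) and had a difference of -0.015 in controls (SE 0.19, adjusted p = 0.956).

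The mitochondrial ribosomal protein genes had a negative median in controls (-0.43). Of 77, 2 were higher and 20 lower in control microglia than in control retina (22.8% and 17.4% of all genes). In knockouts the median was -0.12, with 6 higher and 9 lower (23.7% and 21.2% of all genes). Other genes with transcripts of 526 to 975 nucleotides had medians of 0.04 in knockouts and -0.23 in controls. With the dependence on length and GC content taken out of each library (a choice made after seeing the data), the medians of the set were 1.04 and 1.13. In those fits 63 and 64 of 75 were higher, against 3760 of 15211 and 3726 of 15188 of all genes. The fractions differ in cell type and in rod content, as the marker sums show, and a higher level per cell and a different mix of cells cannot be told apart in bulk libraries.

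**Figure D3:**
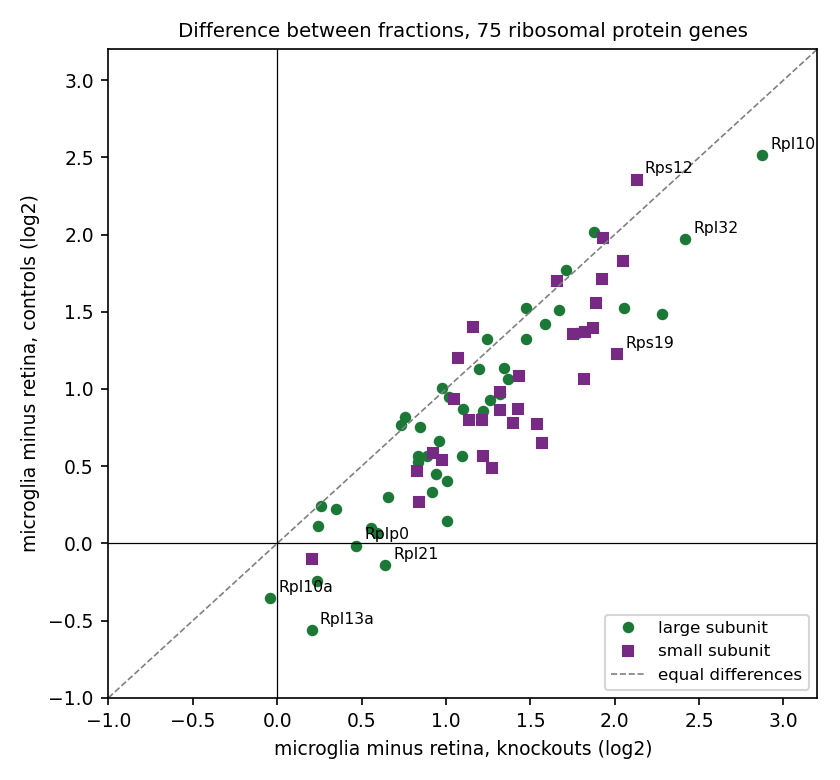
Log2 difference between microglia and retina for 75 ribosomal protein genes, in knockouts (horizontal axis) and in controls (vertical axis), with circles for the large and squares for the small subunit and a dashed line where both are equal. Most genes lie above 0 on both axes, Rpl10 is the highest on both with 2.87 and 2.51, and Rpl10a lies below 0 on both.

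Knockout microglia showed no member of the set past the threshold against control microglia. Of 76 genes tested, 0 were higher and 0 lower by edgeR, where 0.101% of all 14835 genes were higher and 0.0135% lower. The differences were split, with 41 positive and 35 negative, and their median was 0.04, beside -0.01 over all genes. At an unadjusted p under 0.05, 9 genes were higher (3.67% of all genes) and 0 lower (2.09% of all genes), and DESeq2 called 1 gene higher, Rps19, with 0 lower, where it called 1.32% of all genes higher and 0.276% lower. That 9 to 0 count depended on which library was left out. It was 3 higher and 6 lower without knockout microglia replicate 5, and 1 higher and 0 lower without control microglia replicate 2. It was 3 higher and 0 lower without control microglia replicate 3 or 4, and 4 higher and 0 lower without knockout microglia replicate 4. Without knockout microglia replicates 1, 2 and 3 in turn it was 6, 9 and 10 higher, with 0 lower. Without control microglia replicate 1 it was 11 higher and 0 lower. With the length and GC dependence taken out it was 2 higher and 9 lower. The median was -0.10 without knockout microglia replicate 5, and -0.14 with the dependence on length and GC content taken out, where 54 of 76 differences were negative. Of 12 monocyte and border macrophage markers 0 passed by edgeR (1 higher unadjusted), and they summed to 1391 to 2124 CPM in knockout and 553 to 1779 CPM in control microglia; their part in these values was not tested.

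Rps19 (ENSMUSG00000040952, chromosome 7, 24884371 to 24889806, plus strand), a small-subunit gene needed to mature the 3′ end of 18S ribosomal RNA and the gene most often mutated in Diamond-Blackfan anaemia in humans, had the smallest p. It had 187, 189, 179, 207 and 249 CPM in knockout microglia, against 155, 149, 118 and 154 CPM in control microglia. All knockout libraries lay above all control libraries, with a log2 difference of 0.49 (SE 0.13, edgeR adjusted p = 0.415; DESeq2 0.50, adjusted p = 0.0169). Rps19 has 14 named pseudogenes. Rpsa, which encodes the small-subunit protein also known as the laminin receptor, was the other gene whose libraries did not overlap. It had 189.6, 205, 190.2, 189 and 240.1 CPM in knockout microglia and 178, 148, 150.4 and 175 CPM in control microglia (log2 difference 0.32, SE 0.11, edgeR adjusted p = 0.683). Such higher levels without overlap occurred in 2 of 76 genes, against 1.89% of all genes.

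Rps2, Rplp0, Rpl13 and Rpl5 completed the smallest p-values among positive differences, at 0.37, 0.30, 0.21 and 0.37, all with an edgeR adjusted p of 0.738 or more. Rpl5, a carrier of 5S ribosomal RNA that with Rpl11 binds MDM2 when assembly fails, had 87.0, 117, 78.6, 109 and 106 CPM in knockout microglia and 85.6, 76.97, 72.5 and 73.4 CPM in control microglia, with 1 knockout library inside the control range. The negative differences with the smallest p were those of Rps15a (-0.35), Rplp2 (-0.26), Rps29 (-0.32), Rpl37a (-0.31), Rpl36 (-0.27) and Rps23 (-0.17). Rps15a had 30.7, 24.7, 27.7, 36.8 and 52.4 CPM in knockout microglia, against 52.9, 42.6, 43.4 and 36.5 CPM in control microglia. Its highest knockout library was replicate 5, the library that was high across the whole set. Without that library these 6 differences were -0.55 for Rps15a, -0.42 for Rplp2, -0.55 for Rps29, -0.55 for Rpl37a, -0.49 for Rpl36 and -0.30 for Rps23, all with an edgeR adjusted p of 0.551 or more. Leaving out each library in turn, Rps29 ranged from -0.55 to -0.19, Rpl37a from -0.55 to -0.16 and Rps23 from -0.30 to -0.044.

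Knockout retina showed lower values than control retina for nearly the whole set, of which few genes passed. Of 75 genes tested, 2 fell and 0 rose (edgeR, adjusted p under 0.05), where 0.326% of all 15332 genes fell and 1.34% rose. The difference was negative for 74 of 75 genes, against 49.8% of all genes, and the median was -0.34 (0.788-fold), beside 0.00 over all genes. At an unadjusted p under 0.05, 24 genes were lower (6.43% of all genes) and 0 higher (7.79% of all genes), and 12 were lower and 0 higher without control retina replicate 4. The libraries did not overlap for 12 genes, all lower (2.69% of all genes, with 6.02% higher). DESeq2 called 12 genes lower and 0 higher, where it called 2.37% of all genes lower and 5.35% higher. The authors' deposited table has 3 of 75 lower, Rpl21, Rps27a and Rps25, where 1.34% of all its genes were lower, and 74 of 75 values negative. The 30 small-subunit and 45 large-subunit genes had medians of -0.40 and -0.29.

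Rpl21 (ENSMUSG00000041453, chromosome 5, 146832890 to 146837032, plus strand), a large-subunit gene, fell to 59.8, 49.8, 54.5, 54.3 and 56.1 CPM in knockout retina, against 77.7, 93.9, 96.0 and 93.3 CPM in control retina. The groups did not overlap, and the log2 change was -0.76 (SE 0.11, edgeR adjusted p = 0.0171), or 0.592-fold. Leaving out any library kept it past the threshold, with changes of -0.80 to -0.71, and it has 15 named pseudogenes. Rps27a (ENSMUSG00000020460, chromosome 11, 29545846 to 29548109, minus strand) encodes a small-subunit protein made as a fusion with ubiquitin. It fell to 33.1, 30.4, 34.4, 34.5 and 38.8 CPM in knockout retina, against 56.6, 62.2, 47.4 and 65.2 CPM in control retina, again without overlap (log2 change -0.80, SE 0.15, edgeR adjusted p = 0.0342). Without any of the other 7 libraries in turn Rps27a lost the call, which it kept without knockout retina replicate 5 or control retina replicate 3.

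The other small p-values belonged to genes that did not pass. Rps20, a small-subunit gene, had the most negative value and counted 19.1, 17.2, 14.5, 20.6 and 22.4 CPM in knockout retina, against 36.1, 34.0, 28.7 and 34.6 CPM in control retina (log2 difference -0.87, SE 0.20, edgeR adjusted p = 0.0649). Rpl14 had 58.7, 53.9, 52.3, 63.6 and 64.4 CPM in knockout retina, against 98.7, 79.7, 72.0 and 80.7 CPM in control retina (-0.54, SE 0.13, adjusted p = 0.0884). Groups did not overlap for these genes, nor for Rpl9 (-0.50), whose adjusted p was 0.0985.

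**Figure D4:**
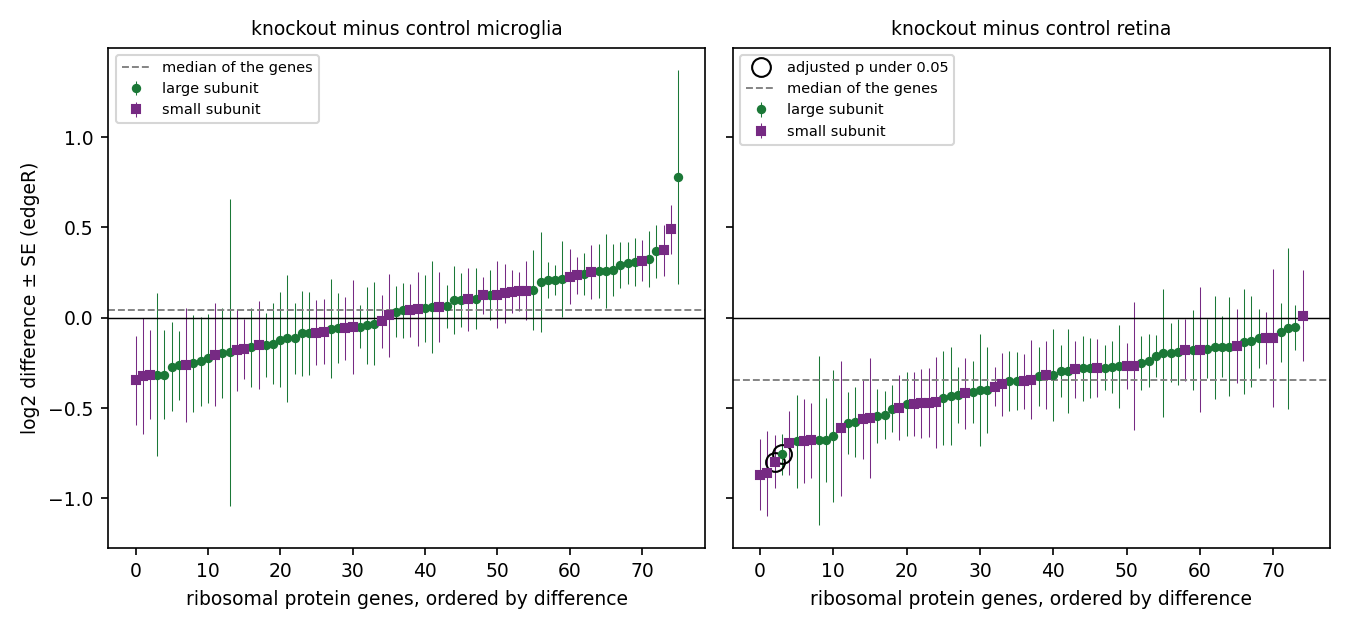
Log2 difference between knockouts and controls (points, with the SE as bars, edgeR) for each ribosomal protein gene, in microglia (left, 76 genes) and retina (right, 75 genes), ordered by size, with the median dashed and genes past an adjusted p of 0.05 ringed. Microglia values lie on both sides of 0 with a median of 0.04, and in retina 74 of 75 lie below 0 with a median of -0.34 and Rpl21 and Rps27a ringed.

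The retina difference was smaller once length and GC content were accounted for, and smaller without control retina replicate 4 or 2. With the length and GC dependence taken out of each library, the median was -0.081, beside 0.086 over all genes, 51 of 75 genes were negative, 6 were lower at an unadjusted p under 0.05 and 1 gene, Rpl21, was lower (-0.52, adjusted p = 0.0440), while Rps27a stood at -0.19. Other genes of 526 to 975 nucleotides had a median of -0.16 in the plain comparison. Mitochondrial ribosomal protein genes had -0.24 there, with 59 of 77 negative (49.8% of all genes) and 0 past the threshold. At an unadjusted p under 0.05, 10 of them were lower and 0 higher (6.43% and 7.79% of all genes). Without control retina replicate 4 the median was -0.24 and 70 of 75 genes were negative, and without control retina replicate 2 they were -0.26 and 72. Transcripts of rod, bipolar and cone markers also differed with genotype, while cell shares were not measured. Of 15 rod markers 6 fell and 0 rose, where 0.326% of all genes fell and 1.34% rose. Of 11 bipolar and 10 cone markers 7 and 4 rose and 0 fell. Rod markers summed to 140861 to 174144 CPM in knockout retina and 177205 to 260395 CPM in control retina, bipolar markers to 1672 to 3243 and 319 to 871 CPM, and cone markers to 2708 to 6486 and 797 to 1838 CPM. Müller glia markers summed to 1720 to 3145 CPM in knockout and 858 to 2107 CPM in control retina, and amacrine and ganglion cell markers to 194 to 328 and 70.5 to 158 CPM. Endothelial markers summed to 61.2 to 128 CPM in knockout and 24.5 to 51.2 CPM in control retina, and monocyte and border macrophage markers to 16.5 to 19.0 and 0.224 to 5.10 CPM, both without overlap. Erythrocyte markers summed to 52.4 to 644 CPM in knockout and 119 to 328 CPM in control retina. The 14 microglia markers summed to 8.16 to 20.6 CPM in knockout and 14.1 to 27.3 CPM in control retina, with overlap. Among them Itgam, P2ry12 and Fcrls were at 0 in all knockout retina libraries. Only 2 of the 14 could be tested by genotype in retina, with 1 difference positive and 1 negative. Of the other lists 1 of 10 amacrine and ganglion cell markers rose, and of the 8 tested Müller glia, 5 endothelial, 5 erythrocyte, 2 microglia and 2 monocyte and border macrophage markers 0 passed. With the rod level as a covariate the median was -0.36, beside -0.067 over all genes. In that fit 9 of 75 genes were positive and 66 negative, where 46.7% of all genes were positive. At an unadjusted p under 0.05, 2 of the 75 were lower and 0 higher, and 0 were past the threshold among them and among all genes. The part of cell mix in the difference was not tested beyond this.

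**Figure D5:**
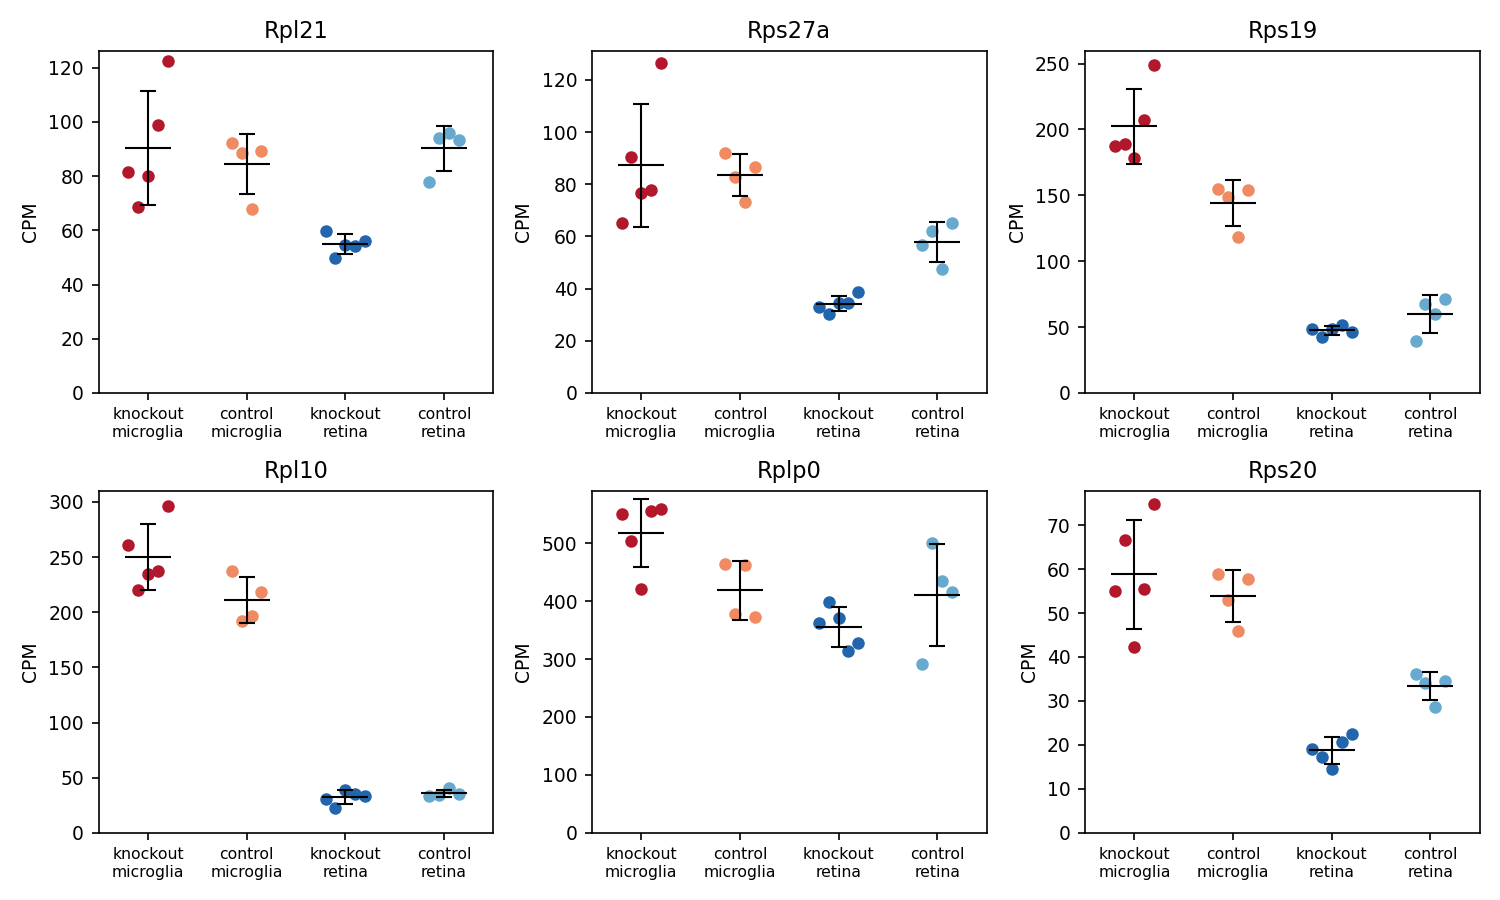
Normalised read count (CPM) of 6 named genes in every library, with the group mean as a bar and the SD as whiskers. Rpl21 and Rps27a are lower in knockout than in control retina, Rps19 is higher in knockout than in control microglia without passing the edgeR test, Rpl10 has the largest difference between fractions, Rplp0 is high in all 4 groups and Rps20 is lower in knockout than in control retina without passing the edgeR test.

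The genotype differences in microglia and retina were compared in a fit of all 18 libraries. Of 77 genes, 0 passed in either direction (edgeR adjusted p under 0.05), where 0.0772% of all 18128 genes were higher and 0.392% lower. The genotype difference was more positive in microglia than in retina for 67 of 77 genes, with a median of 0.37, beside -0.13 over all genes. Without knockout microglia replicate 5 it was so for 59 of 77 genes with a median of 0.28, and without control retina replicate 4 for 63 of 77 with a median of 0.31. At an unadjusted p under 0.05, 19 genes were higher (4.14% of all genes) and 0 lower (8.39% of all genes), and DESeq2 called 11 higher (2.04% of all genes) and 0 lower (3.88% of all genes). Rps20 (0.96), Rps19 (0.82), Rpl21 (0.81), Rps27a (0.82), Rps3a1 (0.79) and Rps2 (0.69) had the smallest p, with edgeR adjusted p between 0.116 and 0.184. Rps3a1, a small-subunit gene, had microglia and retina differences of 0.14 and -0.68, and Rps2 had 0.37 and -0.35. The negative values with the smallest p were small, from -0.21 for Rps15a and -0.19 for Rps12 to -0.10 for Rpl35a and Rps21, -0.045 for Rpl12 and -0.029 for Rplp2. With the length and GC dependence taken out, a choice made after seeing the data, the median was -0.089, beside -0.22 over all genes. In that fit 28 of 77 genes were positive and 49 negative, where 40.6% of all genes were positive. The sign of the set's median therefore rested on that choice, while the median lay above that of all genes in both fits. The test without knockout retina replicate 5 called Rps3a1 and the test without control retina replicate 1 called Rps19.

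Of 6 paralogs of the set tested between fractions, 4 were higher in knockout microglia than in knockout retina (edgeR adjusted p under 0.05, 23.7% of all genes). In the control comparison 2 were higher (22.8% of all genes), and 0 were lower in either (21.2% and 17.4% of all genes). Rps27l, a paralog of Rps27 that is a target of p53, had 38.0, 38.3, 46.3, 42.6 and 59.2 CPM in knockout microglia and 34.3, 22.8, 30.0 and 30.9 CPM in control microglia. In retina Rps27l had 4.84, 3.36, 3.87, 6.94 and 5.601 CPM in knockouts and 7.22, 6.22, 5.00 and 10.5 CPM in controls. It was higher in microglia than in retina (log2 3.11 in knockouts and 1.98 in controls, edgeR adjusted p = 9.42e-06 and 0.00152), and its microglia genotype groups did not overlap, with a difference of 0.61 that did not pass (adjusted p = 0.649). Rpl7l1, a nucleolar assembly factor related to Rpl7, was higher in microglia by 1.59 in knockouts and 1.56 in controls. Rps4l, a paralog of Rps4x, averaged 64.6 ± 21.4 and 48.5 ± 10.7 CPM in knockout and control microglia and 67.7 ± 12.99 and 52.6 ± 12.6 CPM in knockout and control retina, and did not pass between fractions. Rpl36al and Rps27rt, both under 2 CPM in every group, were higher in knockout microglia than in knockout retina by 2.27 and 2.11 (edgeR adjusted p = 0.000505 and 0.00526) and did not pass in controls. Rpl22l1 averaged under 3 CPM in every group and passed in no comparison, and the other paralogs Rpl3l, Rpl10l and Rpl39l averaged under 1 CPM in every group.

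Fau, which encodes a small-subunit protein fused to a ubiquitin-like protein, had 126, 90.5, 102, 121 and 183 CPM in knockout microglia, 147, 103, 105 and 112 CPM in control microglia, 47.7, 45.7, 42.8, 54.1 and 50.3 CPM in knockout retina and 58.4, 60.3, 52.1 and 63.3 CPM in control retina. It was higher in microglia than in retina by 1.29 in knockouts and 0.95 in controls (edgeR adjusted p = 0.000342 and 0.00189), close to the medians of the set.

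Other genes of the translation apparatus were split between the fractions. Of all genes, 23.7% were higher and 21.2% lower in knockout microglia than in knockout retina, and 22.8% and 17.4% in the control comparison. Whether the lists below differ from these shares was not tested. Of 19 elongation, initiation and associated genes with TOP messages, 8 were higher and 2 lower in knockout microglia than in knockout retina, with a median of 0.26, and 3 were higher and 3 lower in the control comparison, with a median of -0.18. Eef1a1, the elongation factor that brings aminoacyl-tRNA, was higher by 1.54 and 1.37, and Hnrnpa1, an RNA-binding protein, lower by 1.34 and 1.39 in knockouts and controls. In retina 18 of the 19 genotype differences were negative (49.8% of all genes) with a median of -0.28, and 0 passed by edgeR. At an unadjusted p under 0.05, 6 were lower and 0 higher there (6.43% and 7.79% of all genes). In microglia 15 of 19 were positive (49.5% of all genes) with a median of 0.13, also with 0 passing. Unadjusted, 4 were higher and 0 lower in microglia (3.67% and 2.09% of all genes). Of 38 ribosome biogenesis genes, 12 were higher and 0 lower in knockout microglia than in knockout retina, and 6 were higher and 2 lower in controls; 0 differed by genotype in either fraction (unadjusted, 2 higher and 0 lower in microglia, and 1 higher and 2 lower in retina). Fbl, the methyltransferase of ribosomal RNA, was higher in microglia by 1.66 in knockouts and 1.34 in controls. The 8 noncoding hosts of small nucleolar RNAs with TOP starts, Gas5 among them, gave 0 higher and 2 lower in each fraction comparison and 0 genotype differences (unadjusted, 0 in microglia and 1 lower in retina).

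Among 21 regulators of these genes and messages, 9 were higher and 2 lower in knockout microglia than in knockout retina (23.7% and 21.2% of all genes). In controls 8 were higher and 3 lower (22.8% and 17.4% of all genes). Larp1, which holds TOP messages in check, was higher by 1.10 and 1.56, Rptor, a subunit of the mTOR complex, by 1.75 and 2.30, and Eif4ebp1, a translation repressor controlled by mTOR, by 4.16 and 4.61. Of the 20 tested between genotypes 0 passed in either fraction by edgeR (unadjusted, 0 higher and 1 lower in each). A list of 13 genes for the surveillance of ribosome assembly and stalled ribosomes also included targets of p53. Of the 13, 2 rose and 0 fell in knockout microglia, where 0.101% of all genes rose and 0.0135% fell. The list was chosen with earlier results of these data known, so its count beside these shares is no result about the list. Both were targets of p53: Cdkn1a, the cell cycle inhibitor p21, by 3.57 (edgeR adjusted p = 0.000118), and Phlda3, a repressor of AKT, by 4.43 (adjusted p = 0.000226). No other gene of the list passed, and a response of the surveillance genes themselves was not tested. In retina 0 of the 13 passed (1 higher and 1 lower unadjusted). Of the 18 genes of Diamond-Blackfan anaemia, which belong to the set, 17 could be tested in each fraction. All 17 were higher in knockout microglia than in knockout retina and 13 in the control comparison, beside 66 and 55 of 75 in the set. By genotype 0 passed in microglia (median -0.11). In retina all 17 differences were negative with a median of -0.47 and 0 passed (5 lower unadjusted). In the whole set 74 of 75 were negative there and 24 lower unadjusted, against 49.8% and 6.43% of all genes.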

How the data were processed

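Per the labels' protocols, RNA of sorted cells was amplified with a SMARTer Ultra Low kit and read in pairs on an Illumina NovaSeq X Plus. The authors deposited raw counts per gene for all 18 libraries, and for each knockout comparison a table of log2 fold changes with p-values and adjusted p-values, per the file headers. The build GRCm38 and the tools featureCounts, Subread, DRAGEN, STAR 2.7.9a, edgeR and limma come from the submitters' processing notes; whether counting used strand and how multiply aligned reads were treated are not given in the sources used here. Lines repeating an identifier (287 of 55774, all with identical counts) were dropped, and no line lacked a gene name.

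The test across genes was edgeR's quasi-likelihood test on the counts (edgeR 4.0.16, R 4.3.3, filterByExpr, TMM, Benjamini-Hochberg over all genes tested, threshold 0.05). Knockout comparisons used the 9 libraries of a fraction, fraction comparisons those of a genotype, and the interaction all 18. Standard errors were obtained from each log2 change and its F statistic. CPM use TMM factors over all 18 libraries, and RPKM the principal transcript of GENCODE M21, which gave positions on GRCm38 and holds 55141 of 55487 genes. Library medians use log2(CPM + 0.5). The members, lists, tests and alternatives were chosen with earlier results of these data known. Genes were named by the smallest p of each direction, the largest fraction differences and the highest and lowest levels; those outside these were named after their values were seen. A few genes covered by that choice are not reported here. The test was checked on simulated counts. Amplified reads are not independent molecules, so the spread between libraries is the error used. Alternatives were DESeq2 1.42.0 and its size factors, no filter, the replicate block, a fit of all 18 libraries, the rod level as a covariate, removal of a trend on length and GC content (chosen after seeing the data for the fraction comparisons and the interaction), and leaving out each library.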

Additional observations from a re-analysis of the deposited data

Results flagged for a closer look

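For the 34 named genes and the shares, 140 groups of 4 or 5 libraries were examined for a library far from the others, and 13 had one; chance gives such a gap in about 1 in 20 groups. In knockout microglia Rps10 stood at 0.900 CPM in replicate 1, where the next library had 0.277 CPM, and Rps23 at 169 CPM in replicate 5, the library that was high over the whole set. In control microglia Rpl21 stood low at 68.0 CPM and Rps19 low at 118 CPM, both in replicate 3. Rps14 was high at 288 CPM in control microglia replicate 1, and Rps10 high at 0.826 CPM in replicate 2. In knockout retina replicate 1 Rpl13 (139.6 CPM) and Rps12 (5.38 CPM) were low and Rps10 was high (0.692 CPM). Rps27 was high at 21.6 CPM in knockout retina replicate 2 and Rps9 at 115 CPM in replicate 5. In control retina Rpl21 was low at 77.7 CPM in replicate 1 and Rps10 high at 0.616 CPM in replicate 2. The low Rps19 value lies in the control group of its genotype comparison, whose log2 difference ranged from 0.40 to 0.53 when each library was left out.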

How the results depend on the processing

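The higher level in microglia kept the sign of its median under every alternative run, with fewer calls under some: of 75 genes, 66 were higher in knockouts and 55 in controls, against 64 to 66 and 45 to 54 with each library left out, and no filter gave 45 of 77 in controls. Leaving out each library gave medians of 1.11 to 1.34 and 0.80 to 0.93, and the control median was 1.13 with the length and GC trend removed. In knockout microglia DESeq2 called 1 gene higher. Calls over all genes, 17 in the main test, were 8 without a filter, 237 with DESeq2 and 32 in the fit of all libraries. They were 11 with the trend removed and 4 to 21 without each library (4 or 5 where the library left out was a control). The median of the set ranged from -0.10 to 0.08 without each library. It was -0.14 with the trend removed and -0.10 with the replicate block. In knockout retina the genes called lower numbered 1 without a filter, 12 with DESeq2, 1 with the trend removed, 0 with the rod covariate and 1 to 3 without each library. Calls over all genes, 255 in the main test, were 120 without a filter, 1184 with DESeq2, 0 with the rod covariate and 96 to 342 without each library, and the median of the set was -0.081 with the trend removed and -0.42 to -0.24 without each library. In the interaction DESeq2 called 11 genes of the set and 1074 over all genes (85 in the main test), leaving out libraries gave 0 or 1 and 51 to 143, and the median was -0.089 with the trend removed and 0.28 to 0.46 without each library. Rps27a turned to -0.032 there with the trend removed. Left-out libraries turned, in the interaction, Rpl35a (-0.30 to 0.015), Rps21 (-0.31 to 0.069), Rpl12 (-0.27 to 0.065) and Rplp2 (-0.19 to 0.080). Mean shares without mitochondrial and rod genes were 0.494% and 0.615% in knockout and control retina. The causes were not tested.

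Whether replicate numbers pair the samples is not stated, and the main tests used no pairing. The correlation of same-numbered libraries ran from -0.05 to 0.06. A low correlation between different cell types cannot exclude a shared mouse, so these values do not decide it. With the replicate block, calls over all genes were 2 in microglia, 0 in retina and 9 in the interaction, and genes of the set called lower in retina were 0. The fraction comparisons gave 60 and 39 higher genes with the block in knockouts and controls.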
